A study of Mus musculus with 12 samples.

Results

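Collagen transcripts were examined in mouse embryonic stem cell RNA-seq. The collagen genes were taken as every gene whose symbol is Col, a number, the letter a and a number, which gave 43 genes in each of the 3 deposited tables, out of 19996 genes in the SL and overexpression tables and 19718 in the 2i table. Of the 43 genes, 26 reached a mean of 1 FPKM, a fragment count divided by transcript length and library size, in at least 1 of the 6 groups, and 17 did not.

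Collagens are extracellular proteins built from 3 chains wound into a triple helix. Fibrillar collagens form the rope-like fibrils of connective tissue and are made in bulk by fibroblasts, type IV collagens form the network of basement membranes, and FACIT collagens sit on the surface of fibrils. Pluripotent cells are known to lay down basement membrane components, while abundant fibrillar and type VI collagen is a hallmark of fibroblasts, the cells used as feeder layers. Chains are hydroxylated and glycosylated in the endoplasmic reticulum, folded with chaperones, secreted, trimmed by proteinases and cross-linked by lysyl oxidases.

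Polyadenylated RNA from 12 libraries in 6 groups of 2 was compared. SL Foxd3-/- cells carried floxed Foxd3 alleles and Cre-ER and received 4-hydroxytamoxifen (2 µM) for 3 days, and SL Foxd3fl/fl cells were the same line left untreated. Both grew on irradiated mouse embryonic fibroblasts with 15% fetal bovine serum and the cytokine LIF. The 2i pair of that line, labelled Foxd3-/- (tamoxifen) and Foxd3fl/fl (untreated), was kept without serum in N2B27 medium with LIF, the MEK inhibitor PD0325901 (0.4 µM) and the GSK3β inhibitor CHIR99021 (3 µM), and no feeders are named for it. tetON Foxd3 cells, which carry an inducible Foxd3, and WT LF2 cells both received doxycycline (1 µg/µl, 3 days) in serum and LIF without feeders. No group received tamoxifen without the floxed allele, so drug and deletion cannot be told apart, and between SL and 2i the medium and the feeders differ together. The tetON Foxd3 and WT cultures, called without feeders below, differ from SL in cell line, doxycycline and feeders together, which cannot be told apart.

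Foxd3, a forkhead transcription factor, was read first as a check of the labels. It stood at 1.62 and 1.83 FPKM in SL Foxd3-/- libraries, against 4.53 and 4.81 FPKM in SL Foxd3fl/fl libraries. In 2i it stood at 2.07 and 2.45 FPKM in the libraries labelled Foxd3-/-, against 2.51 and 2.42 FPKM in Foxd3fl/fl libraries, and the groups overlapped, while the authors' deposited table gives it as 1.70-fold higher (adjusted p = 9.43e-06). It stood at 53.2 and 50.1 FPKM in tetON Foxd3 libraries, against 10.6 and 14.1 FPKM in WT libraries. Foxd3 transcript therefore did not bear out the deletion label in 2i, and those libraries are called by their label throughout. Summed over genes, the authors' mean read signal was 24278898 to 54096080 reads per group, and 11033 to 11919 genes reached 1 FPKM in a library. Nothing in the labels tells whether the 2 libraries of a group are separate cultures, and p-values here cover only their spread, which could be technical. It is also not stated whether a line is a single clone.

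The 26 collagens at 1 FPKM or more fell into 2 sets by where they were seen. A set of 11 reached a group mean of 1 FPKM in SL only: Col3a1, Col4a5, Col5a2, Col6a1, Col6a2, Col6a3, Col8a1, Col10a1, Col12a1, Col15a1 and Col16a1. The other 15 also reached it in 2i or in the serum cultures without feeders. Of these, 11 reached it in SL too (Col1a1, Col1a2, Col2a1, Col4a1, Col4a2, Col5a1, Col5a3, Col7a1, Col9a2, Col9a3 and Col18a1), and 4 did not (Col11a1, Col17a1, Col20a1 and Col26a1). The SL-only set spanned 1.29 to 15.3 FPKM over SL Foxd3-/- libraries and 0.778 to 8.85 FPKM over SL Foxd3fl/fl libraries. In the 8 libraries of the other tables its highest value was 1.12 FPKM, for Col5a2 in 1 tetON Foxd3 library. The tables were made separately by the authors, so levels from different tables are set side by side without a test.

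Some group means lay close to the threshold. Just inside it, Col20a1 averaged 1.00 FPKM in the 2i libraries labelled Foxd3-/- and 1.04 FPKM in tetON Foxd3 libraries. Just outside it, Col26a1 averaged 0.988 FPKM in the 2i libraries labelled Foxd3-/- and 0.991 FPKM in 2i Foxd3fl/fl libraries, and Col11a1 averaged 0.901 FPKM in SL Foxd3-/- libraries. Col26a1 passed through its mean of 3.02 FPKM in WT libraries. In the SL-only set, Col4a5 averaged 0.972 FPKM in SL Foxd3fl/fl libraries. Col5a2 averaged 0.744 FPKM in tetON Foxd3 libraries, and Col3a1 0.711 FPKM in the 2i libraries labelled Foxd3-/-. The 17 collagens below 1 FPKM in every group were Col4a3, Col4a4, Col4a6, Col6a4, Col6a5, Col6a6, Col8a2, Col9a1, Col11a2, Col13a1, Col14a1, Col22a1, Col23a1, Col24a1, Col25a1, Col27a1 and Col28a1. Their values ran from 0 to 1.26 FPKM in single libraries, the highest being Col22a1 in a WT library.

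**Figure D1:**
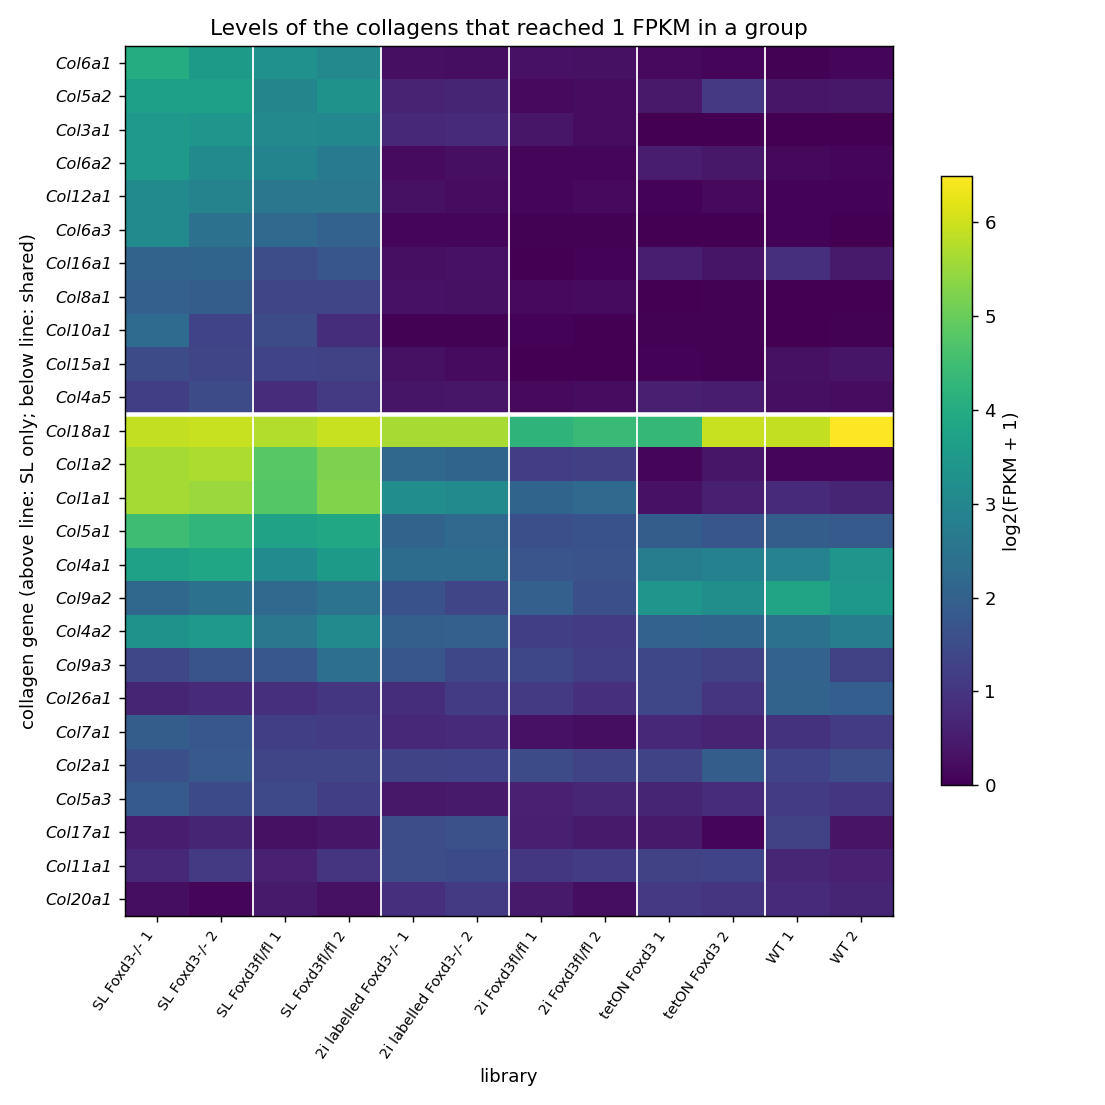
Heat map of log2(FPKM + 1) for the 26 collagens (rows) that reached a group mean of 1 FPKM, in the 12 libraries (columns, 2 per group). Each of the 11 SL-only collagens above the white line is brighter in the 4 SL libraries than in any other library, though the lowest, such as Col4a5, stay dim. Col18a1 is bright in all 12.

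The collagen repertoire differed in make-up between the cultures. Summed over the 43 genes, collagen FPKM was 290.3 and 280.3 in SL Foxd3-/- libraries, against 193.1 and 229.9 in SL Foxd3fl/fl libraries. It was 88.4 and 88.0 in the 2i libraries labelled Foxd3-/-, against 41.2 and 41.1 in 2i Foxd3fl/fl libraries, and 56.2 and 97.0 in tetON Foxd3 libraries, against 104.2 and 133.6 in WT libraries. Without Col18a1 the sums were 39.5 and 39.3 in the 2i libraries labelled Foxd3-/-, against 23.5 and 21.4 in 2i Foxd3fl/fl libraries, and 37.1 and 36.5 in tetON Foxd3 libraries, against 45.2 and 44.8 in WT libraries. Col18a1 was the most abundant collagen per length in each of the 12 libraries. It made up 20.1% to 27.3% of summed collagen FPKM in SL, 43.0% to 55.4% in 2i and 34.0% to 66.5% in the serum cultures without feeders. The type I chains Col1a1 and Col1a2 together made up 27.8% to 34.2% in SL, 10.9% to 13.1% in 2i and 0.494% to 0.842% without feeders.

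Type I collagen, the main protein of bone, tendon and skin, is made of Col1a1 (chr11:94936224-94953042, plus strand; GRCm38, GENCODE M21) and Col1a2 (chr6:4504814-4541544, plus strand). Col1a1 stood at 48.0 and 45.0 FPKM in SL Foxd3-/- libraries, against 26.6 and 37.5 FPKM in SL Foxd3fl/fl libraries. In 2i it stood at 8.06 and 7.57 FPKM in the libraries labelled Foxd3-/-, against 3.23 and 3.63 FPKM in Foxd3fl/fl libraries, and the groups did not overlap. Without feeders it stood at 0.244 and 0.497 FPKM in tetON Foxd3 libraries, against 0.720 and 0.587 FPKM in WT libraries. Col1a2 stood at 47.7 and 50.8 FPKM in SL Foxd3-/- libraries and 27.1 and 36.0 FPKM in SL Foxd3fl/fl libraries. In 2i it stood at 3.495 and 3.23 FPKM in the libraries labelled Foxd3-/- and 1.28 and 1.34 FPKM in Foxd3fl/fl libraries. It was 0.0783 and 0.319 FPKM in tetON Foxd3 libraries and 0.0709 and 0.0726 FPKM in WT libraries. The type I triple helix usually holds more Col1a1 than Col1a2 chains. The ratio of Col1a1 to Col1a2 transcript was 0.885 to 1.04 in the SL libraries, 2.31 to 2.70 in the 2i libraries, 1.56 and 3.11 in tetON Foxd3 libraries and 8.09 and 10.2 in WT libraries, where both values are low.

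The other fibrillar chains differed in where they were seen. Col3a1, the single chain of type III collagen, stood at 10.3 and 9.64 FPKM in SL Foxd3-/- libraries, against 7.37 and 7.23 FPKM in SL Foxd3fl/fl libraries. It was at most 0.744 FPKM in the 4 libraries of 2i and listed at 0 in all 4 libraries without feeders. Type V collagen starts type I fibrils, and its chains split: Col5a2 belonged to the SL-only set, whereas Col5a1 was seen in every culture. Col5a2 stood at 11.7 and 11.7 FPKM in SL Foxd3-/- libraries, against 6.87 and 8.85 FPKM in SL Foxd3fl/fl libraries, and at 0.122 to 1.12 FPKM in the other 8 libraries. Col5a1 stood at 21.4 and 18.4 FPKM in SL Foxd3-/- libraries, against 12.3 and 13.9 FPKM in SL Foxd3fl/fl libraries. In 2i Col5a1 stood at 3.16 and 3.68 FPKM in the libraries labelled Foxd3-/-, against 1.98 and 2.12 FPKM in Foxd3fl/fl libraries. Without feeders it stood at 2.78 and 2.34 FPKM in tetON Foxd3 libraries, against 2.74 and 2.60 FPKM in WT libraries. Col3a1 and Col5a2 are neighbours on chromosome 1, 24614 bases apart on opposite strands. The cartilage fibril chain Col2a1 had group means of 1.49 to 2.24 FPKM in all 6 groups, and the type V chain Col5a3 had group means of 0.361 to 2.14 FPKM.

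Type VI collagen forms beaded filaments around cells from Col6a1, Col6a2 and Col6a3, and all 3 were in the SL-only set. Col6a1 stood at 15.3 and 10.6 FPKM in SL Foxd3-/- libraries, against 8.76 and 7.36 FPKM in SL Foxd3fl/fl libraries. Col6a2 stood at 10.3 and 7.45 FPKM in SL Foxd3-/- libraries, against 6.63 and 5.28 FPKM in SL Foxd3fl/fl libraries. Col6a3 stood at 7.39 and 4.48 FPKM in SL Foxd3-/- libraries, against 3.68 and 3.15 FPKM in SL Foxd3fl/fl libraries. In each of these genes both SL Foxd3-/- libraries lay above both SL Foxd3fl/fl libraries, and SL Foxd3-/- replicate 1 was the highest library. Outside SL none of the 3 exceeded 0.439 FPKM in a library. Col12a1, a FACIT collagen that binds type I fibrils, stood at 7.67 and 6.54 FPKM in SL Foxd3-/- libraries, against 4.94 and 4.92 FPKM in SL Foxd3fl/fl libraries, and at most at 0.215 FPKM elsewhere.

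Type IX collagen is a FACIT collagen of cartilage fibrils, and its chain Col9a2 was highest in the serum cultures without feeders. Col9a2 stood at 9.46 and 8.20 FPKM in tetON Foxd3 libraries, against 12.9 and 10.1 FPKM in WT libraries. It stood at 3.53 and 4.44 FPKM in SL Foxd3-/- libraries, against 3.62 and 4.58 FPKM in SL Foxd3fl/fl libraries. In 2i it stood at 2.13 and 1.54 FPKM in the libraries labelled Foxd3-/-, against 2.96 and 1.98 FPKM in Foxd3fl/fl libraries, so the groups of both deletion pairs overlapped. Its partner chain Col9a3 had group means of 1.48 to 3.27 FPKM. The 6 cartilage markers summed to 3.65 and 3.34 FPKM in tetON Foxd3 libraries, against 6.67 and 5.43 FPKM in WT libraries, and to 5.10 to 8.06 FPKM in the SL and 2i libraries. Sox9 was highest in SL, at up to 3.38 FPKM, and Matn3 in 2i, at up to 4.00 FPKM. Matn1 was highest in WT libraries, at 3.91 and 3.98 FPKM, against 0.101 to 0.175 FPKM in SL libraries. Their part in the Col9a2 levels was not tested.

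Basement membrane collagen was represented by Col4a1 and Col4a2, whose genes start head to head on chromosome 8. Col4a1 (chr8:11198423-11312826, minus strand) and Col4a2 (chr8:11312805-11449287, plus strand) have annotated starts 21 bases apart, and their first exons overlap by 22 bases. Since the pair shares this stretch of DNA and their levels kept a similar ratio in the libraries, the RefSeq promoter windows (GRCm38.p6, 250 bases before to 50 after the start, each read 5′ to 3′ on its gene's own strand) are shown, with matches to CCAAT (or ATTGG) and to GGGCGG (or CCGCCC) in capitals.
Col4a1, chr8:11312777-11313076, minus strand: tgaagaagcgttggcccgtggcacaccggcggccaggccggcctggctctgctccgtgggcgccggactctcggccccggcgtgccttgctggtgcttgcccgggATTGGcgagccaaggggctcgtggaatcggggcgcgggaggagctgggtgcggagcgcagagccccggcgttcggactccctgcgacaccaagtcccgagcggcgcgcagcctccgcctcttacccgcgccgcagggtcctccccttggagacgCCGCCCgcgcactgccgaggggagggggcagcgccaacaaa
Col4a2, chr8:11312555-11312854, plus strand: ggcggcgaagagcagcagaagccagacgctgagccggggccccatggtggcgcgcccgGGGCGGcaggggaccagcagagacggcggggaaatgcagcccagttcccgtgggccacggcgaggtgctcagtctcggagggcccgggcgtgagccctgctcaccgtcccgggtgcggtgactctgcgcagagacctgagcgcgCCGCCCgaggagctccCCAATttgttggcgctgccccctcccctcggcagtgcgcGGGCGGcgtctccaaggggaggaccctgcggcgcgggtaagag
The windows share 78 bases. Their base composition was 74.0% G and C for Col4a1 and 73.7% for Col4a2. The Col4a1 window held 1 match to CCAAT and 1 to GGGCGG, the Col4a2 window held 1 and 3, and within a window none of these matches overlapped another. Of the GGGCGG sites 1 lies in the shared bases and is counted in both windows, on opposite strands. Neither held TATAAA or the forkhead core TGTTTA on either strand. Among all 32851 windows of that length, 37.4% held CCAAT, 35.7% GGGCGG, 13.6% TATAAA and 13.4% TGTTTA on either strand. Of the 37 windows that matched 34 collagen genes, 13 held CCAAT, 23 GGGCGG, 5 TATAAA and 6 TGTTTA. A match describes the letters and is not a binding site, and the absence of one says only that those letters are not in the window.

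Col4a1 stood at 12.1 and 13.4 FPKM in SL Foxd3-/- libraries, against 7.79 and 10.6 FPKM in SL Foxd3fl/fl libraries. In 2i it stood at 3.92 and 3.90 FPKM in the libraries labelled Foxd3-/-, against 2.26 and 2.16 FPKM in Foxd3fl/fl libraries. Without feeders it stood at 5.63 and 6.17 FPKM in tetON Foxd3 libraries, against 6.32 and 9.64 FPKM in WT libraries. Its partner followed the same order in each pair of groups. Col4a2 stood at 8.89 and 10.4 FPKM in SL Foxd3-/- libraries, against 5.01 and 7.60 FPKM in SL Foxd3fl/fl libraries. In 2i Col4a2 stood at 2.89 and 2.97 FPKM in the libraries labelled Foxd3-/-, against 1.299 and 1.23 FPKM in Foxd3fl/fl libraries. Without feeders Col4a2 stood at 3.10 and 3.26 FPKM in tetON Foxd3 libraries, against 4.35 and 5.75 FPKM in WT libraries. The ratio of Col4a1 to Col4a2 stayed within 1.29 to 1.89 over the 12 libraries, while Col4a2 itself varied between 1.23 and 10.4 FPKM. The other head-to-head pairs were low: Col4a3 and Col4a4 (starts 72 bases apart on chromosome 1) did not exceed 0.0267 FPKM in any library. Col4a5 and Col4a6 (starts 1309 bases apart on the X chromosome) differed from each other in level: Col4a5 averaged 1.55 FPKM in SL Foxd3-/- and 0.972 FPKM in SL Foxd3fl/fl libraries, whereas Col4a6 stayed at or below 0.0984 FPKM.

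Col18a1 (chr10:77052178-77166548, minus strand) encodes a basement membrane proteoglycan of the multiplexin class whose end fragment is endostatin. It stood at 58.3 and 60.6 FPKM in SL Foxd3-/- libraries, against 52.8 and 60.3 FPKM in SL Foxd3fl/fl libraries, and the groups overlapped. In 2i it stood at 48.9 and 48.7 FPKM in the libraries labelled Foxd3-/-, against 17.7 and 19.7 FPKM in Foxd3fl/fl libraries, which do not overlap. It stood at 19.1 and 60.5 FPKM in tetON Foxd3 libraries, against 59.0 and 88.8 FPKM in WT libraries, so 1 tetON Foxd3 library was low and the other lay within the WT values. The second multiplexin, Col15a1, averaged 1.67 FPKM in SL Foxd3-/- libraries and 1.44 FPKM in SL Foxd3fl/fl libraries and did not exceed 0.286 FPKM in a library elsewhere.

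**Figure D2:**
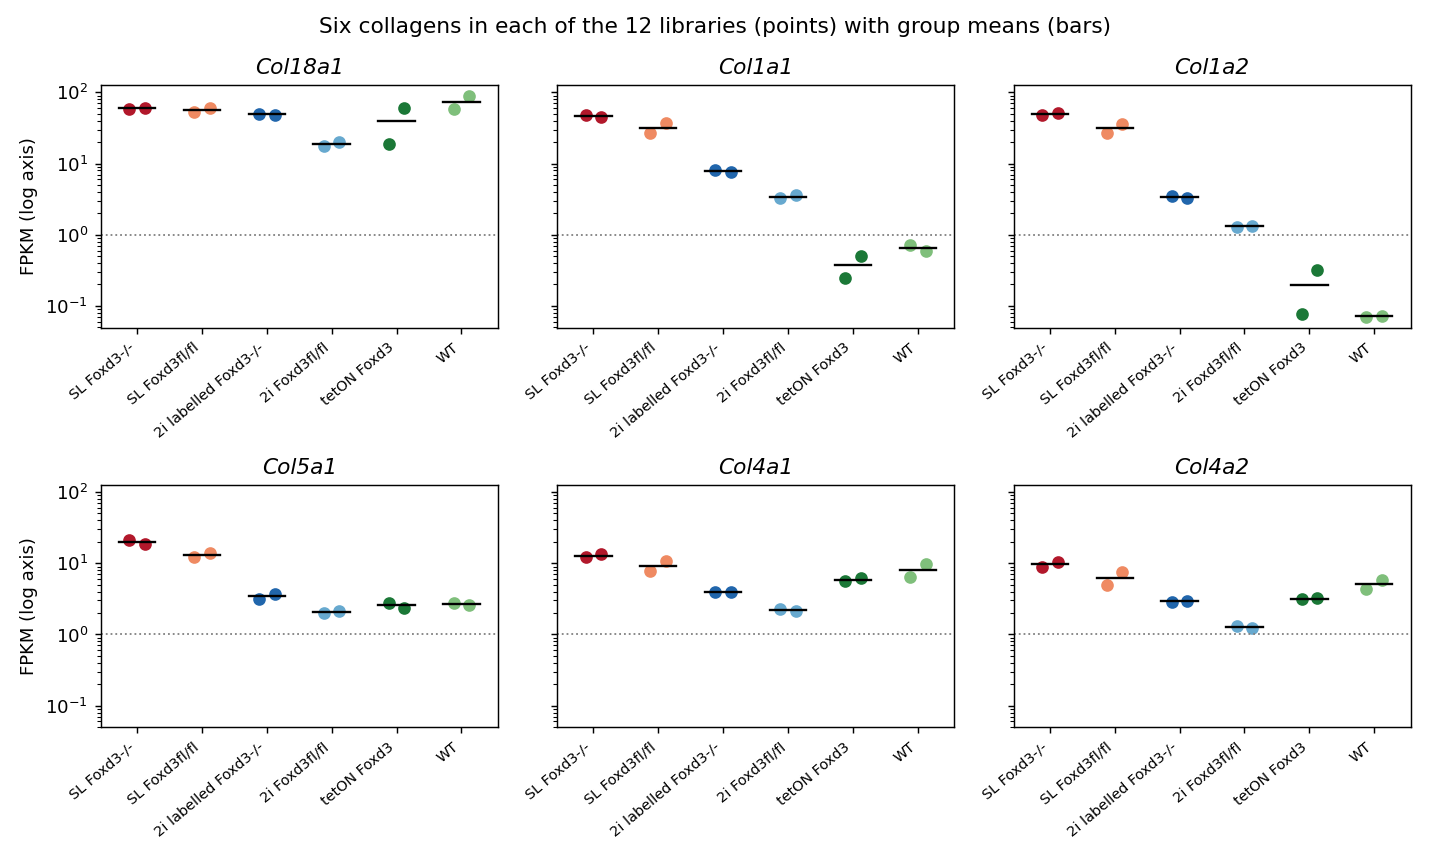
FPKM on a log axis for Col18a1, Col1a1, Col1a2, Col5a1, Col4a1 and Col4a2 in each library (points, 2 per group) with the group means (bars) and 1 FPKM as a dotted line. Col1a1 and Col1a2 fall below 1 FPKM in all 4 libraries without feeders, while Col18a1 stays at 17.7 FPKM or higher in every library.

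In SL, the comparison asks what follows tamoxifen-induced loss of Foxd3. No collagen passed the adjusted test, but for most members both SL Foxd3-/- libraries lay above both SL Foxd3fl/fl libraries. FPKM was tested per gene on log2(FPKM + 1) with limma over all genes with a group mean of at least 1 FPKM, and p was adjusted by the Benjamini-Hochberg method with a threshold of 0.05. Of 22 collagens tested, limma called 0 higher and 0 lower, and over all 12024 genes it called 0.00832% higher and 0% lower. Without adjustment, at 0.05, it had 14 collagens higher and 0 lower, against 6.07% higher and 3.05% lower over all genes. In 18 of the 22 both SL Foxd3-/- libraries lay above both SL Foxd3fl/fl libraries, and 19.7% of all genes tested had that order. The median log2 difference was 0.47 over the 22 collagens and -0.01 over all genes. By structure it was 0.61 for the 3 type VI chains tested, 0.52 for 7 fibrillar chains, 0.44 for 3 type IV chains, 0.21 for 4 FACIT collagens and 0.10 for the 2 multiplexins. Members enter the test through either group, so these counts describe the genes that passed the filter and not all 43. Col4a5 passed only through the SL Foxd3-/- group, so it could enter the test only with a higher mean there.

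By their size, the differences in SL ran from 0.67 downward. The anchoring fibril gene Col7a1, which ties basement membrane to underlying tissue, had the highest log2 difference in SL, 0.67 (SE 0.16, limma adjusted p = 0.247), with 2.78 and 2.40 FPKM in SL Foxd3-/- against 1.29 and 1.22 FPKM in SL Foxd3fl/fl libraries. The log2 difference was 0.64 for Col1a2 (SE 0.15, adjusted p = 0.249 by limma), 0.54 for Col1a1 and 0.56 for Col5a1. The 3 type VI chains had log2 differences of 0.61 (Col6a1), 0.50 (Col6a2) and 0.62 (Col6a3), and the basement membrane pair had 0.44 (Col4a1) and 0.56 (Col4a2). The short-chain network collagens had 0.59 (Col8a1, a collagen of vessel walls) and 0.62 (Col10a1, a collagen of growth plate cartilage, whose groups overlapped). Col18a1 was close to 0 at 0.07 (SE 0.11). The type IX chains were the 2 members with negative values, -0.03 for Col9a2 and -0.53 for Col9a3, with 1.58 and 2.24 FPKM of Col9a3 in SL Foxd3-/- against 2.40 and 4.13 FPKM in SL Foxd3fl/fl libraries. The remaining log2 differences were 0.52 (Col5a2), 0.45 (Col12a1), 0.45 (Col16a1), 0.40 (Col3a1), 0.37 (Col4a5), 0.33 (Col2a1), 0.32 (Col5a3) and 0.13 (Col15a1).

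The authors' deposited table of SL called 2 collagens after adjustment over all its genes, Col5a1 at 1.57-fold higher in SL Foxd3-/- (adjusted p = 0.00686) and Col1a2 at 1.53-fold higher (adjusted p = 0.0157). At that threshold the authors' deposited table had 0.44% of all genes higher and 0.095% lower. With SL Foxd3-/- replicate 2 left out, the log2 difference was 1.11 for Col10a1, 0.85 for Col6a1 and 0.93 for Col6a3. With SL Foxd3-/- replicate 1 left out instead, these were 0.12, 0.36 and 0.32. In each of these fits the lone SL Foxd3-/- library was assumed to vary like the other group, so only sizes are given.

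Split by where they were seen, the SL-only and the shared collagens had similar differences in SL. All 11 SL-only collagens had positive log2 differences, from 0.13 to 0.62 with a median of 0.50, though Col4a5 passed the filter only through SL Foxd3-/-. Of the 11 shared collagens tested, 9 were positive and 2 negative, from -0.53 to 0.67 with a median of 0.44. Markers of fibroblasts that are not collagens had positive differences as well. Of 17 measured, 13 were tested and all 13 were positive, with a median log2 difference of 0.63. After adjustment limma called 0, and 8 were higher at an unadjusted p under 0.05, against 6.07% of all genes. Twist2 and Fbln5 passed the filter only through the SL Foxd3-/- group, so they could enter the test only with a higher mean there. The summed level of the 17 markers was 366.9 and 336.3 FPKM in SL Foxd3-/- libraries, against 192.3 and 219.6 FPKM in SL Foxd3fl/fl libraries, and 8.84 to 12.2 FPKM in the 8 libraries of the other tables. In the authors' deposited table Bgn (biglycan), Prrx1, Thbs1 and Fbn1 (fibrillin) were higher after adjustment, by 1.62-fold, 2.01-fold, 1.60-fold and 1.76-fold. The defining markers Dcn, Lum and Pdgfra reached at most 0.606, 0.0915 and 0.713 FPKM in any library, and Lum was listed at 0 in the 8 libraries outside SL.

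Y-linked transcripts also differed between the cultures. Eif2s3y and Ddx3y were listed at 0 in all 8 libraries outside SL, the 4 libraries of the same Foxd3fl/fl;Cre-ER line in 2i included. The Y-linked gene Kdm5d stood at 0.0614 to 0.0909 FPKM in 2i and at 0 without feeders. In SL, Eif2s3y stood at 1.14 and 0.931 FPKM in Foxd3-/- libraries, against 0.578 and 0.637 FPKM in Foxd3fl/fl libraries, without overlap and with a log2 difference of 0.34 (limma adjusted p = 0.657). Eif2s3y passed the filter only through the SL Foxd3-/- group, so the filter favoured that order. Summed SL-only collagen was 20.6 and 18.2 FPKM per 100 FPKM of fibroblast markers in SL Foxd3-/- libraries, against 23.8 and 20.1 in SL Foxd3fl/fl libraries, and the groups overlapped. Outside SL both sums were low. There the ratio was 21.7 and 20.1 in tetON Foxd3 libraries, against 17.5 and 15.7 in WT libraries. In 2i it was 30.3 and 27.7 in the libraries labelled Foxd3-/-, against 10.2 and 9.17 in Foxd3fl/fl libraries. That ratio was chosen after the values were seen. In bulk RNA a different number of cells of a type and a different amount of RNA per cell cannot be told apart, and the part of the feeder cells in the collagen differences was not tested.

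**Figure D3:**
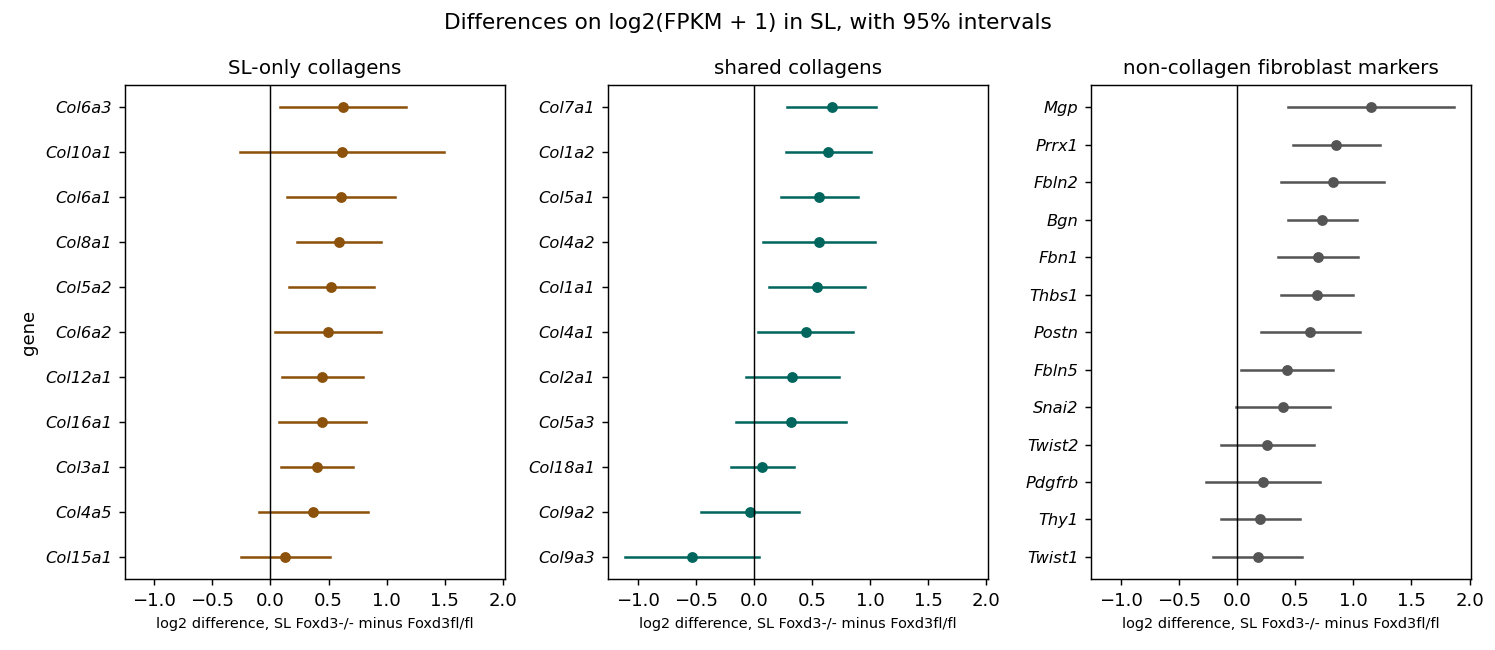
Log2 differences on log2(FPKM + 1), SL Foxd3-/- minus SL Foxd3fl/fl, with 95% intervals from limma, for the 11 SL-only collagens, the 11 shared collagens tested and the 13 fibroblast markers tested. Most points of all 3 panels lie between 0 and 1, Col18a1 and Col9a2 lie near 0 and Col9a3 lies at -0.53.

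Genes that make, bind and break down collagen were read in SL as well. Of 31 genes of collagen biosynthesis 26 were tested, 0 passed in limma, and the median log2 difference was 0.10. Unadjusted, 4 were higher and 0 lower, against 6.07% higher and 3.05% lower over all genes. Bmp1, which cuts procollagen ends, stood at 7.53 and 7.59 FPKM in SL Foxd3-/- against 3.48 and 4.57 FPKM in SL Foxd3fl/fl libraries, and the authors' deposited table called it 1.83-fold higher (adjusted p = 0.0255). Lox, a lysyl oxidase that cross-links collagen, stood at 26.7 and 25.2 FPKM in SL Foxd3-/- against 17.2 and 18.3 FPKM in SL Foxd3fl/fl libraries. Of 9 collagen receptors 4 were tested, and Ddr2, a receptor tyrosine kinase for fibrillar collagen, stood at 2.78 and 2.60 FPKM in SL Foxd3-/- against 0.832 and 1.07 FPKM in SL Foxd3fl/fl libraries. Ddr2 passed the limma filter only through the SL Foxd3-/- group, so it could enter that test only with a higher mean there. Ddr2 was 2.87-fold higher in the authors' deposited table. All 7 degradation genes tested had positive differences, and the authors' deposited table called the inhibitor Timp2 2.19-fold higher (adjusted p = 0.00244). The 13 basement membrane partners tested had a median log2 difference of 0.02, with 7 positive and 6 negative. None of these lists had a member past the adjusted limma threshold in SL, nor had the markers of smooth muscle (5 tested), primitive and parietal endoderm (3), cartilage (3) and pluripotent cells (6).

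In 2i, 9 of 12 collagens tested rose in the libraries labelled Foxd3-/- and none fell. Of these 9, Col17a1 and Col20a1 passed the filter only through the libraries labelled Foxd3-/-. They could therefore enter the test only with a higher mean there. limma called 47.9% of all 11637 genes tested higher and 19.7% lower, so calls were frequent throughout. The median log2 difference was 0.63 over the 12 collagens and 0.19 over all genes. After median-of-ratios scaling, which moved the median of all genes to -0.01, 9 collagens were higher and 1, Col9a2, lower, against 30.5% higher and 33.5% lower over all genes.

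Col18a1 rose with a log2 difference of 1.34 (SE 0.07, limma adjusted p = 4.02e-06) and 1.12 after scaling. On this scale that was the highest of the 12, but with a pseudocount of 0.1 Col17a1 (1.97) and Col20a1 (1.58) exceeded Col18a1 (1.38). Col17a1, a transmembrane collagen of hemidesmosomes, stood at 1.91 and 2.04 FPKM in the libraries labelled Foxd3-/-, against 0.476 and 0.386 FPKM in Foxd3fl/fl libraries, a log2 difference of 1.06 (SE 0.10, adjusted p = 5.28e-05 by limma). Both type I chains rose, Col1a1 by 0.99 (SE 0.10) and Col1a2 by 0.92 (SE 0.10) on the log2 scale, as did the fibril-starting Col5a1 by 0.53 (SE 0.11). The basement membrane pair rose, Col4a1 by 0.61 (SE 0.10, limma adjusted p = 0.000661) and Col4a2 by 0.80 (SE 0.10, limma adjusted p = 0.000185). Col20a1, a FACIT-like collagen, rose by 0.65, at 0.876 and 1.13 FPKM in the libraries labelled Foxd3-/- against 0.373 and 0.185 FPKM in Foxd3fl/fl libraries. Col11a1, a chain of cartilage fibrils, rose by 0.40 (SE 0.10, limma adjusted p = 0.00672), with 1.88 and 1.74 FPKM in the libraries labelled Foxd3-/- against 1.07 and 1.18 FPKM in Foxd3fl/fl libraries. The 3 members that did not pass had log2 differences of 0.27 (Col9a3), -0.09 (Col2a1) and -0.29 (Col9a2).

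The authors' deposited table of 2i called 15 of the 43 collagens higher and 3 lower, against 20.6% higher and 20.2% lower over all its genes. Besides the 9 above, the authors' deposited table had 6 collagens below 1 FPKM in both 2i groups as higher: Col3a1 (2.84-fold), Col5a2 (3.28-fold), Col7a1 (2.55-fold), Col4a5 (1.86-fold), Col23a1 (2.69-fold) and Col27a1 (2.03-fold). Col3a1 stood at 0.679 and 0.744 FPKM in the libraries labelled Foxd3-/-, against 0.316 and 0.152 FPKM in Foxd3fl/fl libraries. Col5a2 stood at 0.574 and 0.585 FPKM in the libraries labelled Foxd3-/-, against 0.122 and 0.165 FPKM in Foxd3fl/fl libraries. Its 3 lower collagens were Col5a3, Col6a4 and Col9a2, with signed folds of -1.78, -1.68 and -1.62. The type VI chains of the SL-only set were not among its calls: Col6a1 stood at 0.212 and 0.177 FPKM in the libraries labelled Foxd3-/-, against 0.241 and 0.226 FPKM in Foxd3fl/fl libraries.

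**Figure D4:**
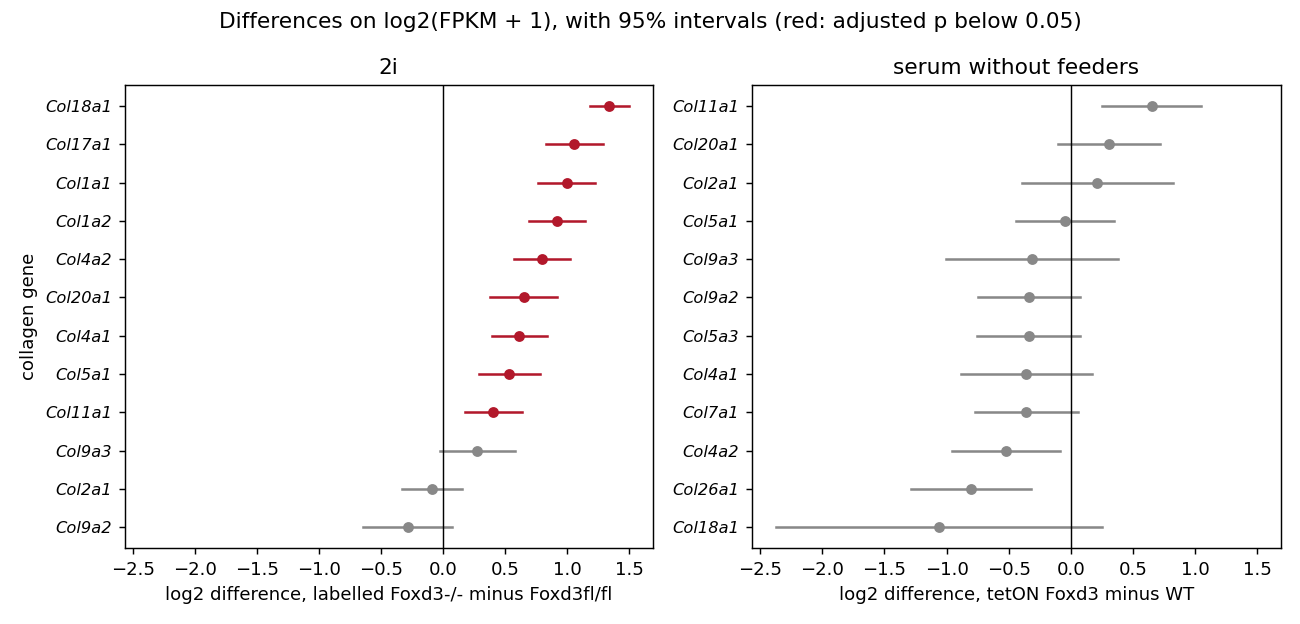
Log2 differences on log2(FPKM + 1) with 95% limma intervals for the 12 collagens tested in 2i (left, libraries labelled Foxd3-/- minus Foxd3fl/fl) and the 12 tested in serum without feeders (right, tetON Foxd3 minus WT). In 2i 9 collagens passed the adjusted threshold (red), and in the overexpression pair none did, with the widest interval for Col18a1.

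Markers of other cell types did not share a direction in 2i. The SL-only collagens, all under the level for testing there, summed to 2.88 and 2.88 FPKM in the libraries labelled Foxd3-/-, against 1.14 and 1.12 FPKM in Foxd3fl/fl libraries. Fibroblast markers summed to 9.51 and 10.4 FPKM in the libraries labelled Foxd3-/-, against 11.2 and 12.2 FPKM in Foxd3fl/fl libraries. Of the 4 tested, Thbs1 rose (log2 difference 1.17) while Thy1 and Fbln2 fell by 1.61 and 0.91. Thy1 passed the filter only through the Foxd3fl/fl libraries. Of the 17 measured, 2 to 5 were at 0 in a library, Mgp and Lum in all 4. The contractile genes Tagln and Acta2 rose by 1.31 and 1.15 on the log2 scale, at 11.7 and 11.8 FPKM of Tagln in the libraries labelled Foxd3-/- against 3.55 and 4.78 FPKM in Foxd3fl/fl libraries, and Des fell by 0.42. The endoderm factors Gata4 and Gata6 rose by 0.77 and 0.63, at no more than 1.65 FPKM. Gata4 and Gata6 passed the filter only through the libraries labelled Foxd3-/-, so they could enter the test only with a higher mean there. The other endoderm marker tested, Srgn, had -0.25 and was lower after scaling (log2 difference -0.43, limma adjusted p = 0.0125), at 3.41 and 4.10 FPKM in the libraries labelled Foxd3-/- against 4.29 and 5.03 FPKM in Foxd3fl/fl libraries. Of 6 pluripotency genes tested 3 rose, Nanog, Zfp42 and Sox2, by 0.95, 1.14 and 0.76. Of the others, Utf1 had 0.28, Esrrb 0.13 and Pou5f1 -0.09, and Pou5f1 was lower after scaling (log2 difference -0.31, limma adjusted p = 0.0013). Of 3 cartilage markers tested Matn3 fell by 0.43. Over all genes tested in 2i, limma called 47.9% higher and 19.7% lower, or 30.5% and 33.5% after scaling. So few markers were tested that nothing is read from their counts, and their part in the collagen differences was not tested.

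Genes that process collagen went both ways in 2i. Of 31 genes of collagen biosynthesis 20 were tested, with 4 higher and 9 lower in limma, against 47.9% higher and 19.7% lower over all genes. After scaling 4 were higher and 13 lower, against 30.5% and 33.5%. Pcolce, an enhancer of procollagen cutting, stood at 82.5 and 81.4 FPKM in the libraries labelled Foxd3-/-, against 178.4 and 179.1 FPKM in Foxd3fl/fl libraries, and fell by 1.11 on the log2 scale (SE 0.05, limma adjusted p = 1.77e-06). Its relative Pcolce2 fell by 1.28, and P4ha1, a prolyl hydroxylase that stabilises the triple helix, fell by 0.96, at 36.4 and 38.8 FPKM in the libraries labelled Foxd3-/- against 73.9 and 74.3 FPKM in Foxd3fl/fl libraries. Mia3, which helps load collagen for export from the endoplasmic reticulum, rose by 1.13, at 53.4 and 58.9 FPKM in the libraries labelled Foxd3-/- against 24.4 and 25.7 FPKM in Foxd3fl/fl libraries. Of 3 receptors tested Ddr2 rose, by 0.47, and it passed the filter only through the libraries labelled Foxd3-/-. Of 5 degradation genes tested the gelatinase gene Mmp2 fell by 0.35 and the membrane proteinase gene Mmp14 rose by 0.30. After scaling the degradation counts were 0 higher and 2 lower, and 2 of the 3 receptors were lower. So few genes were tested in these lists that nothing is read from the counts.

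Of 14 basement membrane partners 12 were tested in 2i, with 7 higher and 2 lower in limma, and 5 and 3 after scaling. These counts are near the shares over all genes, 47.9% higher and 19.7% lower, or 30.5% and 33.5% after scaling. The heparan sulfate proteoglycans Agrn and Hspg2, the class to which Col18a1 belongs, rose by 0.86 and 0.79, at 39.1 and 39.0 FPKM of Hspg2 in the libraries labelled Foxd3-/- against 21.5 and 22.8 FPKM in Foxd3fl/fl libraries. The laminin chains went opposite ways: Lamb2 rose by 0.99, at 27.8 and 24.3 FPKM in the libraries labelled Foxd3-/- against 14.2 and 11.2 FPKM in Foxd3fl/fl libraries. Lamb1 fell by 1.54, at 6.07 and 6.02 FPKM in the libraries labelled Foxd3-/- against 18.0 and 21.1 FPKM in Foxd3fl/fl libraries.

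Whether the response differed between media was tested directly, as the log2 difference in SL minus that in 2i, in a limma fit over the 8 libraries. Of 25 collagens tested 3 had a lower and 1 a higher response in SL, against 18.4% of 12497 genes with a lower and 5.55% with a higher response, so both counts were no larger than these shares of all genes. Col18a1 had a difference of -1.26 (SE 0.13, limma adjusted p = 0.0024), with a response of 0.07 in SL and 1.34 in 2i. Col20a1 had -0.86 (SE 0.18, adjusted p = 0.0143 by limma) and Col17a1 -0.81 (SE 0.16, limma adjusted p = 0.0119), both of which lay below 1 FPKM in SL. Both entered this fit only through the 2i libraries labelled Foxd3-/-, where they are high, so the filter favoured a negative difference. Col8a1 had 0.46 (SE 0.14, limma adjusted p = 0.0498), close to the threshold, and it was at most 0.253 FPKM in the 2i libraries. Without 2i Foxd3fl/fl replicate 2, Col17a1 and Col20a1 missed the threshold (adjusted p = 0.0592 and 0.0696 by limma). Without replicate 2 of the libraries labelled Foxd3-/- in 2i, Col17a1 missed it (adjusted p = 0.0636 by limma) and Col20a1 was below the level for testing. Col8a1 lost its call when any 1 of the 8 libraries was left out, with adjusted p between 0.0606 and 0.18 by limma. For the type I and type IV chains a difference between media was not detected: the 95% interval ran from -0.94 to 0.03 for Col1a1, -0.72 to 0.16 for Col1a2, -0.63 to 0.29 for Col4a1 and -0.78 to 0.32 for Col4a2.

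**Figure D5:**
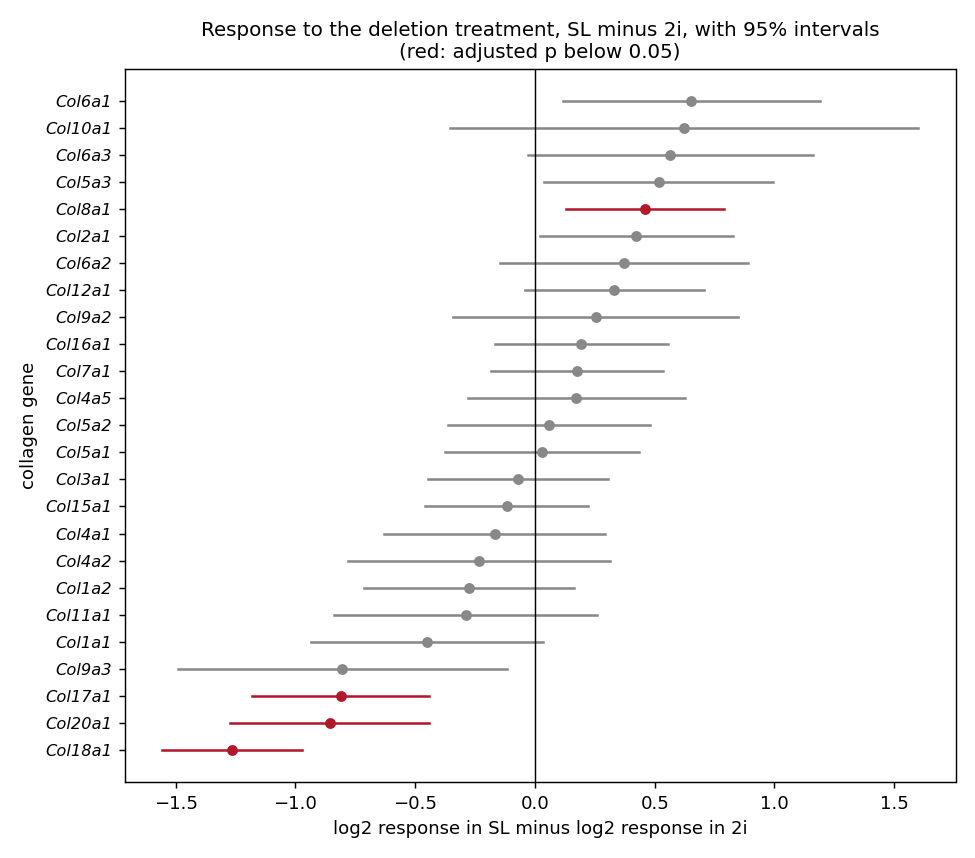
Log2 response in SL minus log2 response in 2i for the 25 collagens tested, with 95% limma intervals, and adjusted p below 0.05 in red. Col18a1 lies at -1.26 with an interval clear of 0, and the intervals of the type I and type IV chains include 0.

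In serum without feeders, the comparison asks what follows induced Foxd3. No collagen passed the adjusted test between tetON Foxd3 and WT cells. Of 12 collagens tested, limma called 0 higher and 0 lower, against 0.994% higher and 1.65% lower over all 11972 genes. Without adjustment it had 1 higher and 2 lower, against 10.4% of all genes in each direction. The median log2 difference was -0.34 over the 12 collagens and 0.03 over all genes, with 3 positive and 9 negative. Both tetON Foxd3 libraries lay above both WT libraries for 2 of the 12 (Col11a1 and Col20a1), against 29.5% of all genes, and below both for 6 (Col4a1, Col4a2, Col5a3, Col7a1, Col9a2 and Col26a1), against 22.8%. Col11a1 and Col20a1 passed the filter only through the tetON Foxd3 group, and Col5a3 and Col7a1 only through the WT group. Their order was therefore favoured by the filter, and nothing is read from these counts.

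Col11a1 stood at 1.396 and 1.49 FPKM in tetON Foxd3 libraries, against 0.611 and 0.498 FPKM in WT libraries, a log2 difference of 0.65 (SE 0.16, limma adjusted p = 0.0973). Col26a1 stood at 1.62 and 1.02 FPKM in tetON Foxd3 libraries, against 3.22 and 2.82 FPKM in WT libraries, a log2 difference of -0.80 (SE 0.19, limma adjusted p = 0.0951). In both genes the groups did not overlap. Col4a2 had a log2 difference of -0.52 (SE 0.17, limma adjusted p = 0.177) and Col4a1 -0.36. Col18a1 had -1.06 (SE 0.52, limma adjusted p = 0.329), and its value rested on single libraries: it was -1.87 (limma adjusted p = 0.0199) without tetON Foxd3 replicate 2 and -0.25 without tetON Foxd3 replicate 1. Smooth muscle markers also differed within the pair of tetON Foxd3 libraries, at 8.62 and 26.2 FPKM summed, against 6.42 and 11.98 FPKM in WT libraries, and their part in the Col18a1 values was not tested. The remaining log2 differences were 0.31 (Col20a1), 0.21 (Col2a1), -0.05 (Col5a1), -0.31 (Col9a3), -0.34 (Col9a2), -0.34 (Col5a3) and -0.36 (Col7a1).

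The authors' deposited table of this pair called 2 collagens higher and 1 lower, against 1.96% higher and 2.59% lower over all its genes. In the authors' deposited table Col11a1 was 3.48-fold higher (adjusted p = 0.000179), Col6a2 was 5.92-fold higher (adjusted p = 0.00426), and Col26a1 had a signed fold of -2.61 (adjusted p = 0.0154). Col6a2 was low in both groups, at 0.439 and 0.346 FPKM in tetON Foxd3 libraries and 0.0972 and 0.0903 FPKM in WT libraries, and did not enter the limma test.

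Among partners, Nid1 (nidogen, which links laminin to type IV collagen) fell, at 16.5 and 16.6 FPKM in tetON Foxd3 libraries against 44.7 and 32.7 FPKM in WT libraries (log2 difference -1.17, limma adjusted p = 0.0409). It was the 1 called of 11 basement membrane partners tested, against 0.994% higher and 1.65% lower over all genes. Mrc2 is a receptor that takes up collagen for breakdown. It stood at 3.73 and 5.18 FPKM in tetON Foxd3 libraries, against 0.684 and 1.02 FPKM in WT libraries. Mrc2 rose by 1.55 on the log2 scale (limma adjusted p = 0.034) and was the 1 called of 6 degradation genes tested. It passed the filter only through the tetON Foxd3 group, so it could enter the test only with a higher mean there. Of the 22 biosynthesis genes and 3 receptors tested none passed in limma. Adamts14, a procollagen proteinase, and Ddr2 missed the threshold with log2 differences of -0.86 and -0.98 (adjusted p = 0.0539 and 0.0522 by limma), and the authors' deposited table called Ddr2 lower with a signed fold of -4.76. Ddr2 passed the limma filter only through the WT group. Fibroblast markers summed to 9.23 and 11.96 FPKM in tetON Foxd3 libraries and 10.5 and 8.84 FPKM in WT libraries. None of the 4 fibroblast, 4 smooth muscle, 4 endoderm and 2 cartilage markers tested passed in limma, and of 6 pluripotency genes Nanog fell by 0.48 on the log2 scale.

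Some collagen values may include reads of another gene. The library kit named in the labels was TruSeq v2 and no strand is stated for the counting, and 9 of the 43 collagens share exon bases with a gene on the other strand. The shared stretch exceeds 100 bases in 4 of them, among which Col9a3 (234 bases with Tcfl5) and Col5a1 (212 bases) are described above.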

How the data were processed

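RNA from 12 mouse embryonic stem cell libraries in 6 groups of 2 was measured as 3 tables, 1 per comparison. Per the submitters' processing notes, the tools were FastQC, TopHat2, SAMtools, Cufflinks and DESeq2 with the builds GRCm38 and mm10, with no version stated. Per the file headers, the authors deposited FPKM per library, a mean read signal per group, a signed fold change (a score with no fixed range) and a p-value per gene. Reads per library are not in the tables, so intervals for counting error cannot be given. The medium of each deletion table was taken from the table's name.

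In R 4.3.3, limma 3.58.1 (trend) was run on log2(FPKM + 1) for each comparison over genes with a group mean of at least 1 FPKM, with Benjamini-Hochberg adjustment over all genes tested and a threshold of 0.05. Folds of low genes come out too small on that scale. The authors' p-values were adjusted the same way over each table. A count test was not used, since FPKM values are not counts, and 2 against 2 libraries allow no exact permutation p below 0.3333. A limma fit over 8 libraries tested the difference between media. The scripts were tested on simulated data. Alternatives were another pseudocount, no filter, median-of-ratios scaling, other level thresholds, a fit over 12 libraries, a replicate block and leaving out each library.

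The collagens and the lists of partner and marker genes were chosen with earlier results of these data known. Every collagen with a group mean of at least 1 FPKM was named, those with at least 5 FPKM with all their libraries, and up to 4 members per list and comparison by smallest adjusted p. Values of other genes, such as cartilage, Y-linked and defining fibroblast markers, and of low collagens were chosen after they were seen. Gene positions are from GENCODE M21 and promoter windows from RefSeq, and all 43 collagens matched GENCODE.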

Additional observations from a re-analysis of the deposited data

Results flagged for a closer look

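For 4 collagens the log2 difference between the libraries labelled Foxd3-/- and the Foxd3fl/fl libraries itself differed between SL and 2i (limma interaction fit over 8 libraries, 25 collagens tested, SL response minus 2i response). The value was -1.26 for Col18a1, -0.86 for Col20a1, -0.81 for Col17a1 and 0.46 for Col8a1, the last close to the threshold (limma adjusted p = 0.0498). These 3 lower and 1 higher responses in SL were no larger a share than over all genes, 18.4% lower and 5.55% higher. Col20a1 and Col17a1 passed the filter of that fit only through the 2i libraries labelled Foxd3-/-. Feeders, medium and the unequal Foxd3 transcript of the 2 label pairs all differ between SL and 2i and cannot be told apart.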

How the results depend on the processing

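With 2 libraries per group, the SL count of collagens called higher depended most on the design. It was 0 of 22 as reported (0.00832% of all genes) and 2 of 22 with all 12 libraries in the fit (Col7a1 and Col8a1, 1.41%). It was 2 of 43 by the authors' deposited p-values (0.44%) and 16 of 22 with a replicate block (9.74%), which also gave 1 lower (6.87%). Each percentage in brackets is the share of all genes in the same setting and direction. In each comparison, and for the difference between media, counts also moved when 1 library was left out. Such a fit has 1 library in a group, so those counts are not given. In 2i the count higher was 19 of 43 without the filter (35.9%) and 15 of 43 by the authors' deposited p-values (20.6%), against 9 of 12 (47.9%). The count lower was 2 without the filter (14.5%), 1 after scaling (33.5%) and 3 by the authors' deposited p-values (20.2%), against 0 (19.7%). For overexpression the count higher was 1 of 12 with all 12 libraries (6.78%) and 1 of 12 with the replicate block (10.3%), against 0 (0.994%). The counts lower in these 2 settings were 1 (7.75%) and 3 (10.4%), against 0 (1.65%). The authors' deposited p-values gave 2 of 43 higher (1.96%) and 1 lower (2.59%). For the difference between media, a pseudocount of 0.1 gave 0 of 25 higher (5.19%) and 5 lower (18.5%). The replicate block gave 6 of 25 higher (11.3%) and 4 lower (31.4%), against 1 (5.55%) and 3 (18.4%) as reported. Signs turned for values near 0. Across left-out libraries these spanned -0.022 to 0.17 for Col18a1 and -0.17 to 0.11 for Col9a2 in SL. For overexpression they spanned -0.080 to 0.51 for Col2a1, -0.13 to 0.044 for Col5a1 and -0.69 to 0.067 for Col9a3. In 2i Col9a3 was -0.16 by the authors' deposited table. The cause was not tested. Over genes, the replicate deviations of the 2 groups of a comparison correlated at 0.605 in SL, -0.05 in 2i and 0.596 in overexpression. Each value rests on 2 pairs of same-numbered libraries, which does not establish a pairing. The SL-only set held 9 to 12 collagens over the alternatives. Depth limits collagens below 1 FPKM.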
